A study of Homo sapiens with 18 samples.

Results

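Candidate m6A-switch sites close to the start of the unspliced transcript were examined in HEK293T cells. A site is a U-tract, a run of at least 5 uridines, that lies within 50 nt of an RRACH motif, and it was taken as near the start when its smallest listed position in any transcript was below 5000 nt. This rule took 2350 of the 15024 distinct U-tracts in both deposited lists (15.6%), and the other 12674 are called deeper sites. Position counts along the unspliced transcript, introns included. Transcripts were checked separately in each list, and in 7221 of 7223 cases every listed site implied the same transcript start on the chromosome. A case with a single site passes this check by definition.

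The study maps contacts of the RNA-binding protein hnRNP C and the RNA modification N6-methyladenosine (m6A) in HEK293T, a human embryonic kidney line that is easily transfected. Its 18 samples form 9 groups of 2. The PARCLIP-MeRIP groups are input and IP, which join crosslinking to hnRNP C with m6A antibody enrichment. The hnRNPC PAR-CLIP groups are Control, METTL3KD and METTL14KD, and the RNA-seq groups are control, HNRNPCKD, METTL3KD and METTL14KD, where KD marks a knockdown. Whether replicates came from separate cultures is not labelled. Both deposited lists hold positions only, with no value per sample, so the depth is unknown and no knockdown effect could be measured here. The PARCLIP-MeRIP list is referred to here as the switch list. The second, for which the submitters use the name HCS, also says whether each site is in an exon or an intron. No level of any marker gene could be measured, and none of the 14 looked-up genes restricted to blood, liver, muscle or neurons had a listed site.

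hnRNP C is an abundant nuclear protein that packages nascent transcripts and prefers single-stranded runs of uridines. METTL3 and METTL14 form the enzyme that methylates adenosine within RRACH motifs, where R is A or G and H is A, C or U. In an m6A switch, methylation weakens local RNA pairing, so that a nearby U-tract that was paired becomes open to hnRNP C. Early introns of nascent transcripts are among the first RNA that such proteins can meet.

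A single site could be shown as sequence, as 1 example of a motif and a U-tract and not as the usual layout. Over all near-start sites, 58.2% of motifs were downstream of the U-tract and the median gap was 16 nt. It lies in the MIR3658 hairpin, a microRNA precursor within the span of UCK2, which encodes a uridine-cytidine kinase. The listed U-tract is at chr1:165877205-165877209 on the plus strand of hg19, exonic for the hairpin, at position 49. The hairpin is given below from RefSeq (GRCh38.p14, chr1:165907921-165907976, plus strand), 5′ to 3′, with the AAACA motif at bases 10 to 14 and the U-tract at bases 49 to 53 in capitals.
MIR3658 hairpin: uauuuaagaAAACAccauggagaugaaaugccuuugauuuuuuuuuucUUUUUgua
The mature microRNA, which starts at base 3 and ends at base 24 (chr1:165907923-165907944), follows with its seed, bases 2 to 8, in capitals.
hsa-miR-3658: uUUAAGAAaacaccauggagau
The motif lies in the mature arm, where its first base is the last base of the seed, and the U-tract lies near the 3′ end of the hairpin with 34 nt between the edges. A longer run of 10 uridines occupies bases 38 to 47 and is separated from the listed U-tract by a single base. The same U-tract was listed under UCK2 at position 80475, paired there with another motif 21 nt downstream. This U-tract was the only near-start site listed with more than 1 motif. The sides and gaps counted over all sites use its nearer motif, 21 nt downstream.

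The near-start sites filled the interval from position 15 to 4997, with a median of 2537.5 and quartiles of 1460.25 and 3672. Only 12 lay in the first 100 nt, 28 in the first 200 nt and 106 in the first 500 nt. The next windows of 500 nt held 236, 282, 262, 269, 272, 260, 233, 224 and 206 sites. Sites were therefore few at the start itself, most numerous from 1000 to 1500 nt, and slightly fewer towards the limit. Of the 2350 sites, 1932 (82.2%) were in the switch list only, 227 (9.66%) in the HCS list only and 191 (8.13%) in both. The choice of 5000 nt fell within a continuous run of sites. The members nearest to it were in XPO1 and RRN3, both at 4997, and SUZ12, at 4996. The sites just outside were in NAA30 and PPIP5K1, both at 5002, and SUZ12 at 5005, so the limit split neighbouring sites of 1 gene, a subunit of Polycomb repressive complex.

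**Figure D1:**
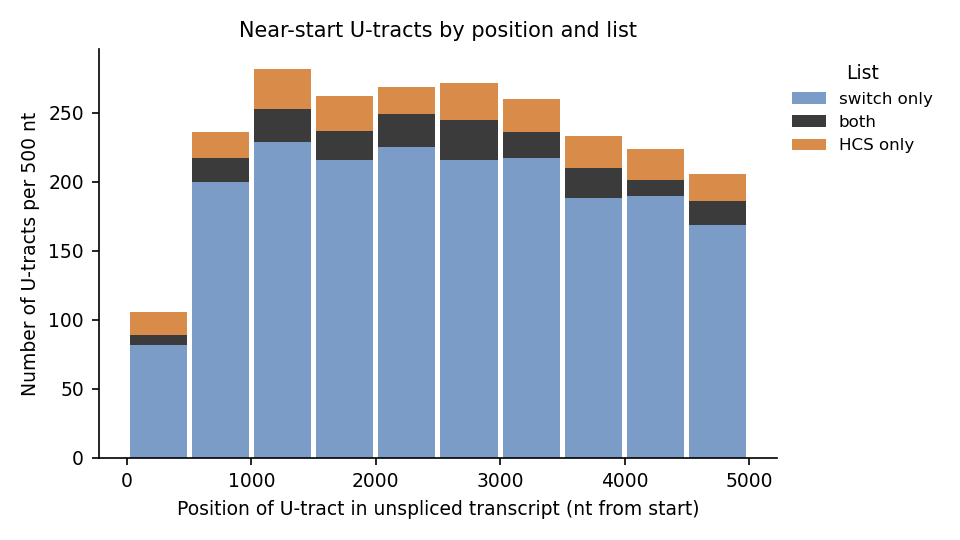
Number of near-start U-tracts in each window of 500 nt of the unspliced transcript, stacked by list (switch only, HCS only, both). The first window holds 106 sites and the third, with 282, is the highest.

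Some sites had more than 1 position, because transcripts of a gene start at different places or because the site was listed under several genes. In 162 of the 2350, another listed transcript put the site at 5000 nt or more, with a median largest position of 17231. Of these, 18 were in the HCS list and 52 were listed under several genes. Among all near-start sites 93 (3.96%) were listed under several genes, against 237 deeper sites (1.87%). The rule takes the smallest position, so a site with several listings is more likely to be taken. The difference between these shares therefore cannot be read as a property of near-start sites.

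The sites nearest to a start were in small noncoding RNAs and a few messenger RNAs. SNORD91B held an exonic HCS U-tract at position 15 (hg19 chr17:2232485-2232489, minus strand). SNORD102 held one of 8 nt at position 17 (chr13:27829216-27829223, plus strand). Box C/D snoRNAs such as these guide ribose methylation of other RNAs, and neither site was in the switch list. A U-tract at position 18 of SNORD56 was in both lists (chr20:2637286-2637290, plus strand). It was also listed at position 4110 of its host gene NOP56, which encodes a core protein of box C/D particles. The first sites in messenger RNA were at position 58 in YWHAE, a 14-3-3 adaptor protein, and position 78 in RPL41, a ribosomal protein whose exonic site was in the HCS list only. In all, 8 near-start sites were listed under small RNA genes and 4 of them were HCS sites, beside 17.8% over all near-start sites. Those listed under MIR548H4 with GLCE, at 2535, and under MIR548O2 with TMEM66, at 783, have positions past the length of a microRNA hairpin. They were therefore not within the small RNA itself.

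The first question was whether near-start sites entered the HCS list as often as deeper ones. They did not differ beyond the error: 418 of 2350 near-start sites (17.8%, exact binomial 95% interval 16.3 to 19.4) were HCS sites against 18.4% of deeper sites (17.7 to 19.1). The odds ratio was 0.961 (95% interval 0.853 to 1.08, adjusted p = 0.656, n = 2350 and 12674 sites). This and the following odds ratios come from logistic models with errors clustered by locus, except those within loci that hold both classes. The exceptions are pooled Mantel-Haenszel odds ratios stratified by locus, which treat the sites of a locus as independent. The p-values were Benjamini-Hochberg adjusted over 11 comparisons, or over those that could be run within loci. The model intervals cover counting error and the clustering of sites in loci, not errors of site calling.

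HCS sites near the start were found in the switch list more often than deeper ones in the model as planned. Of 418 near-start HCS sites, 191 (45.7%, interval 40.8 to 50.6) were in the switch list, against 911 of 2330 deeper HCS sites (39.1%, 37.1 to 41.1). The odds ratio was 1.31 (1.05 to 1.63, adjusted p = 0.0419, n = 418 and 2330 sites). Within the 129 loci that hold both near-start and deeper HCS sites it was 0.978 (0.637 to 1.50). Without the 10 genes richest in near-start sites it was 1.24 (adjusted p = 0.162, n = 400 and 2320 sites).

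Exonic and intronic HCS sites behaved differently near the start and deeper in the transcript. Near the start, 69 of 418 HCS sites (16.5%) were exonic, against 398 of 2330 deeper ones (17.1%), an odds ratio of 0.960 (0.707 to 1.30, adjusted p = 0.792, n = 418 and 2330). Within the 129 loci that hold both, exons had the smaller share near the start, with an odds ratio of 0.318 (0.150 to 0.674, adjusted p = 0.00468, n = 129 loci). Among deeper sites, 237 of 398 exonic HCS sites (59.5%) were in the switch list against 674 of 1932 intronic ones (34.9%), an odds ratio of 2.75 (2.20 to 3.42). Near the start the shares were 34 of 69 (49.3%, 37.0 to 61.6) and 157 of 349 (45.0%, 39.7 to 50.4), an odds ratio of 1.19 (0.687 to 2.05, adjusted p = 0.656, n = 69 and 349).

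The ratio of these odds ratios was 0.432 (0.241 to 0.777, adjusted p = 0.0279, n = 418 and 2330 sites), so the excess of exonic sites in the switch list was smaller near the start. Split by region after the data were seen, near-start intronic HCS sites were more often in the switch list than deeper ones, with an odds ratio of 1.53 (1.20 to 1.94, unadjusted p = 0.000598, n = 349 and 1932). For exonic sites the odds ratio was 0.660 (0.387 to 1.13, unadjusted p = 0.128, n = 69 and 398). With a limit of 2000 nt, where fewer sites enter, the ratio was 0.360 with an adjusted p of 0.140.

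By windows of 1000 nt, 47.1%, 35.7%, 58.8%, 50% and 53.8% of the exonic HCS sites were in the switch list, from counts of 17, 14, 17, 8 and 13 sites. The intronic shares in the same windows were 37.2%, 47.1%, 51.8%, 46.3% and 36.2%, from 43, 85, 83, 80 and 58 sites. The adjacent deeper sites, from 5000 to 10000 nt, resembled the near-start ones. There 51.4% of 35 exonic sites (34.0 to 68.6) and 41.8% of 285 intronic sites (36.0 to 47.7) were in the switch list. Beyond 100000 nt the shares were 55% for exonic and 28.7% for intronic sites. The intronic share was thus lower in the most distant sites than in any near-start window. The exonic share of HCS sites was highest in the first 1000 nt, where 17 of 60 were exonic (28.3%), and lay between 9.09% and 18.3% in the next 4 windows.

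**Figure D2:**
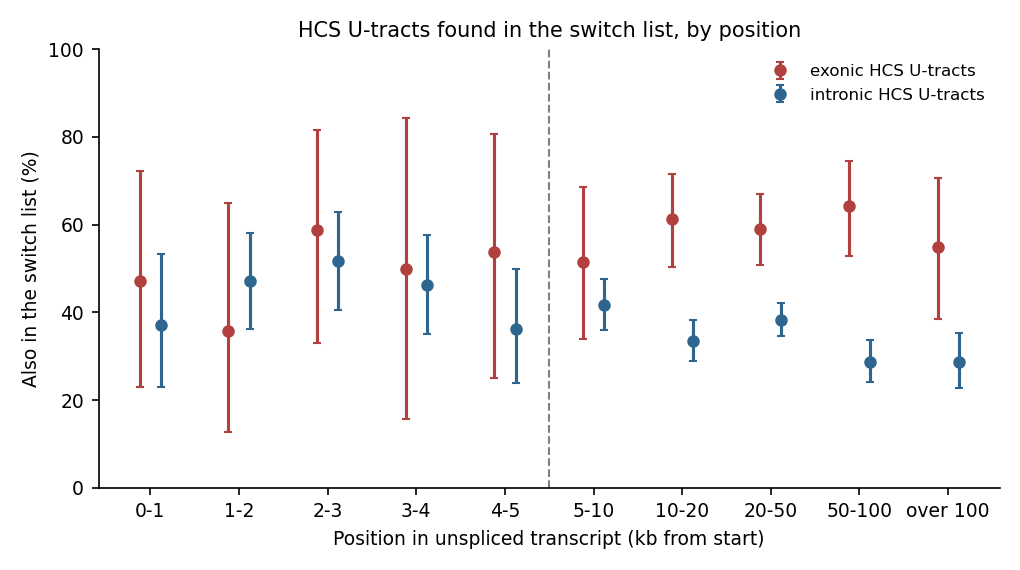
Share of exonic and of intronic HCS U-tracts also found in the switch list, by position in the unspliced transcript in kb, with exact binomial 95% intervals; the dashed line marks 5000 nt. The exonic share stands clear of the intronic share beyond 10 kb (for 20 to 50 kb, 59.1% against 38.3%). Near the start and from 5 to 10 kb the intervals overlap.

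The exonic near-start HCS sites lay in 65 genes. Nuclear long noncoding RNAs held several of them. MALAT1, an abundant RNA of nuclear speckles, had 2 in both lists, a U-tract of 12 nt at position 3248 (chr11:65268479-65268490, plus strand) and one of 11 nt at 4859 (chr11:65270090-65270100). The motif lay 15 nt downstream of the first and overlapped the edge of the second by 1 nt. NEAT1, the scaffold RNA of paraspeckles, had one at 2741 and TUG1 one at 3621, again in both lists.

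Messenger RNAs with an exonic site in both lists included several with well known products. RPL13, a protein of the large ribosomal subunit, had 2, at positions 2606 (chr16:89629723-89629727, plus strand) and 3027 (chr16:89630144-89630149). H2AFZ, which encodes a histone H2A variant, had one at 2000 (chr4:100869508-100869512, minus strand). HSP90AB1, a cytosolic chaperone, had its single listed site at 4161 (chr6:44218854-44218858, plus strand). PIH1D1, a cofactor of the R2TP chaperone complex, had one at 160, with no base between motif and U-tract. GPBP1, which binds GC-rich promoters, had one at 424.

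Long U-tracts made up a larger share of near-start than of deeper sites, with the smallest adjusted p of the 11 comparisons. The median length was 5 nt in both. Runs of 8 or more uridines made up 269 of 2350 near-start sites (11.4%, 10.2 to 12.8) and 1171 of 12674 deeper sites (9.24%, 8.74 to 9.76). The odds ratio was 1.27 (1.10 to 1.46, adjusted p = 0.00905, n = 2350 and 12674 sites). Within the 918 loci that hold both it was 1.29 (1.05 to 1.58, adjusted p = 0.0407, n = 918 loci). With a limit of 2000 nt it was 1.23 and missed the threshold (0.994 to 1.52, adjusted p = 0.206, n = 886 and 14138 sites). For runs of 12 or more, a limit chosen after the data were seen, the shares were 4.43% and 2.71%, an odds ratio of 1.66 (1.33 to 2.07, unadjusted p = 6.03e-06, n = 2350 and 12674). Runs of 8 to 11 nt made up 7.02% and 6.53%, so most of the difference was in the longer classes. The shortest runs of exactly 5 nt made up 62.6% of near-start and 64.5% of deeper sites (odds ratio 0.922, 0.840 to 1.01).

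The share of long runs varied between 10.1% and 13.7% over the 5 near-start windows of 1000 nt. It was 11.6% from 5000 to 10000 nt, 9.26% from 10000 to 20000 nt and 7.24% beyond 100000 nt, so it fell with distance without a step at the limit. Near the start, 12.0% of HCS sites were long runs, as were 11.3% of sites in the switch list only. Among deeper sites the shares were 8.28% and 9.45%.

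The longest near-start U-tract, of 39 nt, was at position 734 of C17orf98 (chr17:36996870-36996908, minus strand). C2orf68 and ZNF33A, a zinc finger gene, each had one of 28 nt. IFI35, an interferon-induced gene, had one of 22 nt at position 1620, and HNRNPU, a nuclear scaffold RNA-binding protein, had one of 20 nt at 2764. These longest runs were in the switch list only. How reads were aligned to such runs is not given in the sources used here, and its part in the difference was not tested.

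The geometry of motif and U-tract was much the same near the start and deeper. RRACH motifs were downstream of their U-tracts in 58.2% of near-start and 59.5% of deeper sites (odds ratio 0.948, 0.859 to 1.05, adjusted p = 0.520, n = 2350 and 12674). The mean gap between their edges was 19.0 nt near the start and 18.7 nt deeper, a difference of 0.325 nt (-0.369 to 1.02, adjusted p = 0.564, n = 2350 and 12674). The median was 16 nt in both. U-tract and motif overlapped in 56 near-start sites (2.38%) and 2.54% of deeper ones. The downstream gaps of 40 and 48 nt, which stand out in the lists, held 85 near-start sites (3.62%) and 4.47% of deeper sites (odds ratio 0.801, 0.598 to 1.07, adjusted p = 0.305, n = 2350 and 12674).

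As a description within the near-start sites, the HCS sites had a median gap of 11.5 nt and the sites in the switch list only had 18 nt. A gap of at most 10 nt was found in 47.8% of the former and 32.1% of the latter. The deeper sites had medians of 11 and 17 nt.

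Clustering of sites did not differ over all loci, while within loci it was lower near the start in a test that takes sites as independent. A neighbouring U-tract within 100 nt was found for 653 near-start sites (27.8%) and 28.4% of deeper sites (odds ratio 0.968, 0.843 to 1.11, adjusted p = 0.709, n = 2350 and 12674). Within the 918 loci that hold both, near-start sites had such a neighbour less often (odds ratio 0.794, 0.685 to 0.920, adjusted p = 0.00468, n = 918 loci). Neighbours can share a motif, and members of such a group are not independent. The near-start sites used 2044 motifs, of which 246 served 2 U-tracts, 23 served 3 and 5 served 4. Motifs with 4 U-tracts were in ANKRD11, C6orf48, IFI35, RPL7 and ZNF747.

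Sites listed under noncoding transcripts only made up 109 near-start sites (4.64%) and 367 deeper ones (2.90%), an odds ratio of 1.63 (1.11 to 2.40, adjusted p = 0.0419, n = 2350 and 12674). Without the 10 genes richest in near-start sites, MALAT1 among them, the odds ratio was 1.59 with an adjusted p of 0.0691. The share was highest in the first 1000 nt, at 7.31%, and between 2.59% and 5.58% in the next 4 windows. The part of transcript length in this difference was not tested.

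**Figure D3:**
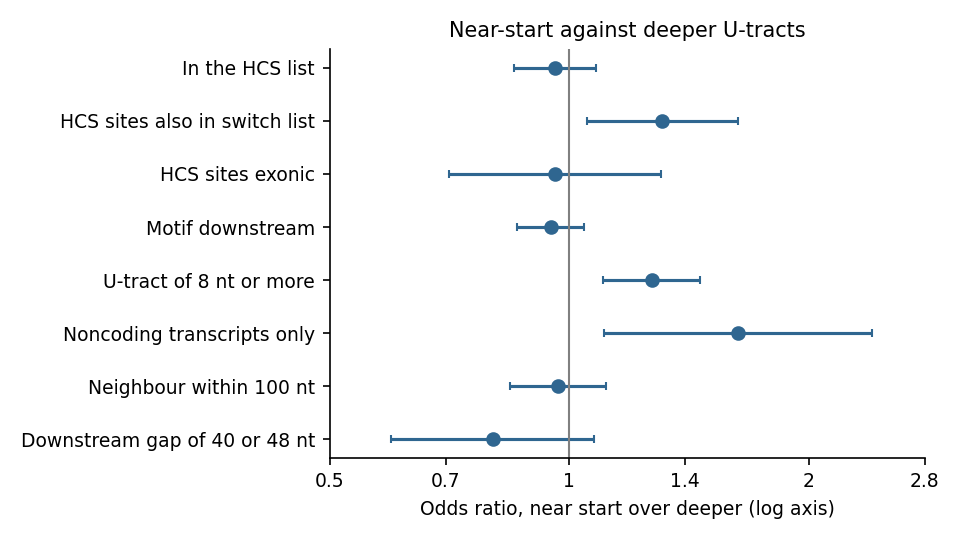
Odds ratios of near-start over deeper U-tracts with 95% intervals clustered by locus, on a log axis, for each share compared; the line at 1 marks no difference. The intervals for long U-tracts (1.27), the switch-list share of HCS sites (1.31) and noncoding transcripts (1.63) lie above 1.

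The near-start sites fell in 1545 of the 4469 genes with any listed site (34.6%). HCS sites near the start fell in 380 of the 1818 genes with any HCS site (20.9%). Most of the 1545 genes had few: 1013 had 1 near-start site, 328 had 2, 189 had 3 to 5 and 15 had 6 or more, with 12 as the maximum. In 606 genes (39.2%) every listed site was near the start, while 939 also had deeper sites. Transcript lengths of the build used are not known here, and the part of short genes in these counts was not tested. The 10 genes with the most near-start sites held 76 of them (3.23%), so no gene dominated.

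C6orf48, a host gene of snoRNAs, had the most, and all 12 of its sites were near the start. The first, an intronic HCS site, was at position 1223 (chr6:31803914-31803918, plus strand), and the others were in the switch list only, from 1645 to 3639. Of these, 6 lay close together from 1645 to 1757. The layout at 1676 and 1683, a U-tract of 5 nt and one of 6 nt with motifs 19 and 11 nt downstream, recurred at 1750 and 1757. The lists do not say whether reads there align to a single place.

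XPO1, the main receptor for nuclear export of proteins, had 9 of its 24 sites near the start. Switch-list sites were at 572, 593 and 607, then at 2160, 2618, 2977 and 3241, and a pair of intronic sites in the HCS list only was at 4990 and 4997. GPBP1 had 8 of 14, of which 6 lay from 424 to 644. RBM14-RBM4, a read-through transcript of neighbouring RNA-binding protein genes, had 8 of 10, of which 3 were in both lists. Of the 8, those at 2510, 3091 and 4393 were near the start only in RBM4, with positions of 24545, 25126 and 26428 in a longer transcript, and the first and last of these were in both lists. RBM3, a cold-inducible RNA-binding protein, had 7 of 7. Its intronic site in both lists was at 1036 and the other 6 fell between 3223 and 3354. C5orf15 had 7 of 8 and MALAT1 7 of 12, at 1355, 1440, 3248, 3687, 3746, 4519 and 4859.

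FAM208A, a subunit of the HUSH silencing complex, had 6 near-start sites of 19, with those at 2067 and 2079 listed at 21128 and 21140 in a longer transcript, and MYBL2, a cell cycle transcription factor, had 6 of 9. EWSR1, an RNA-binding protein, had 6 of 17. IFI35 and RABGGTB, a subunit of the enzyme that prenylates Rab proteins, each had 6 of 6. SRPK1, a kinase of splicing factors, had 6 of 25. Other genes with at least 5 sites and none deeper were PDCD5, RPL7 and BLOC1S1-RDH5, a read-through transcript. The 5 sites of BLOC1S1-RDH5 were shared with RDH5, at 2168 to 2593, and lay at 6501 to 6926 in a longer transcript. NCAPD2, a condensin subunit, was likewise in this class only through SCARNA10, a small Cajal body RNA, which put 2 of its sites at 139 and 163 while NCAPD2 listed them at 16229 and 16253.

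**Figure D4:**
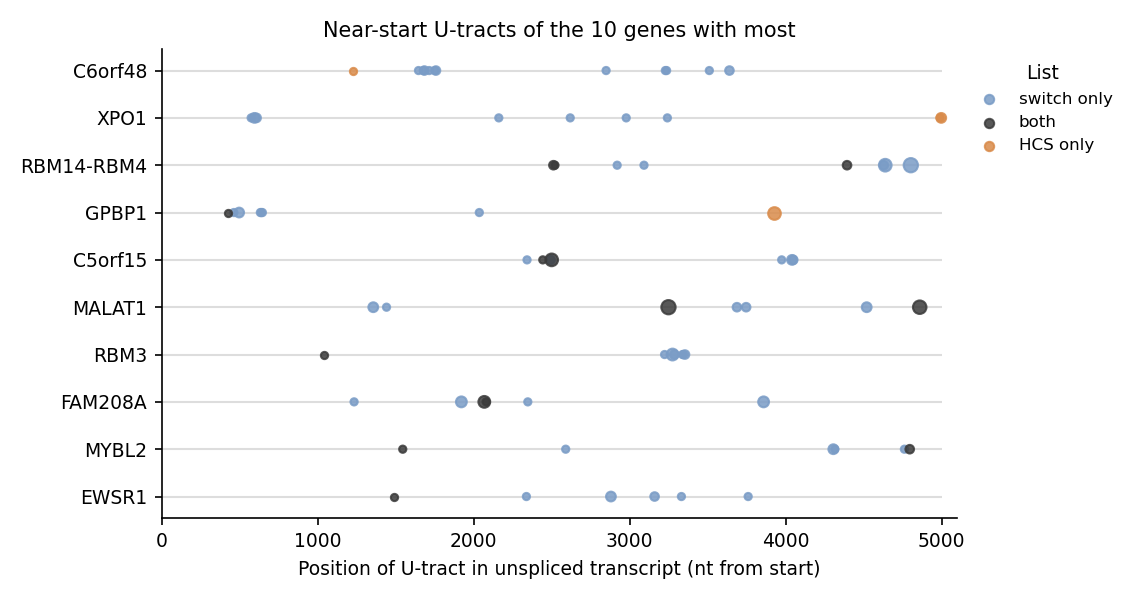
Positions of the near-start U-tracts in the 10 genes that hold the most, in nt from the start of the unspliced transcript, with colour for the list and larger points for longer U-tracts. Sites in C6orf48, GPBP1 and RBM3 fall in tight groups, while those of XPO1 and MALAT1 are spread over the interval.

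Few genes had several HCS sites near the start: 333 had 1, 42 had 2 and 5 had 3 or more. HNRNPM, a splicing regulator, had 3 intronic ones, at 1264 and 3197 in both lists and at 2319 in the HCS list only. LARP4B, an RNA-binding protein that stimulates translation, had them at 1407, 3208 and 3968, of which the last was in both lists. CASP8AP2, needed for histone mRNA production, had 3 in both lists, at 1311, 1319 and 2311. TLE4, a transcriptional corepressor, had 3 between 2188 and 2323, of which the one at 2295 was in both lists.

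For the genes of the proteins studied, the counts are small and are given as a description, with no test. HNRNPC had 6 of its 32 sites near the start, at 2252, 4091, 4101, 4609, 4616 and 4917. None of the 6 was an HCS site, beside 17.8% over all near-start sites. Of its 26 deeper sites, 4 were HCS sites. METTL3 had 3 sites, all near the start, at 2906, 3205 and 3212. All were in the switch list only, as were 82.2% of all near-start sites. METTL14 had 3 sites and none near the start, the first at 20326. These are positions of sites and do not measure the proteins or their RNA.

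Gene lists were described by counts beside the 34.6% over all genes with a site. They use the position that chose the sites, so no test was made. Of the cytosolic ribosomal proteins, 38 of the 41 genes with any site had one near the start (92.7%), and in 31 of them no site was deeper. These genes held 64 near-start sites of 87. Of the 64, 10 were HCS sites, beside 17.8% over all near-start sites. Of the 10, 3 were exonic, beside 16.5% of all near-start HCS sites. RPL7 had 5 and RPL13 had 3. RPS29 had an intronic site in both lists at 524.

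Among long noncoding RNAs that are nuclear or host snoRNAs, 11 of 13 had a near-start site (84.6%), with 28 near-start sites. Of these, 8 were HCS sites and 6 of the 8 were exonic, beside 17.8% HCS sites over all near-start sites and 16.5% exonic among those. The exonic ones were in MALAT1, XIST, NEAT1 and TUG1. How much of these transcripts is exon is not known here, so the exonic count cannot be read as an excess. Proteins of the hnRNP and PTB families, which bind nascent RNA, had 17 of 22 genes with a near-start site (77.3%). Of their 44 near-start sites, 14 were HCS sites and 1 of the 14 was exonic, beside the same 17.8% and 16.5%. The exonic one was in HNRNPA0 at 2223, a U-tract of 16 nt in both lists. HNRNPU had 5 near-start sites of 11 and PCBP2, which binds runs of cytidines, 5 of 28. HNRNPU-AS1 had 5 of 5 and is listed on the same strand of chromosome 1 as HNRNPU. Among SR proteins and related splicing factors the count was 21 of 29 (72.4%), with exonic HCS sites in SRSF1 at 3615 and SRSF6 at 3565.

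Translation factors had 19 of 30 (63.3%). EEF1A1, which brings aminoacyl-tRNA to the ribosome, had 4 of 4 from 3399 to 4439, and EIF4A2, an RNA helicase of initiation, had 4 of 4. Histone genes had 3 of 5 and immediate early and stress-response transcription factors 4 of 7, among them ATF3 with a site in both lists at 1591, listed at 51275 in a longer transcript. Among m6A writers, erasers and readers 8 of 16 (50%) had a near-start site. YTHDF2, a reader that promotes RNA decay, had 4 of 13 with intronic HCS sites at 1554 and 4004. IGF2BP1, another reader, had 3 of 7.

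The other lists lay nearer to the share over all genes or below it. Heat shock proteins and chaperones had 8 of 19 (42.1%) and core spliceosome genes 14 of 38 (36.8%). Mitosis and cell cycle genes had 12 of 40 (30%), among them CCNB1, the mitotic cyclin, with 3 near-start sites of 4. Chromatin modifiers and remodellers had 17 of 64 (26.6%), and although these genes held 446 sites only 29 of them were near the start. SETD2, the histone H3 lysine methyltransferase of transcribed genes, had 4 of 19. Ubiquitin ligases and deubiquitinases had the lowest share, 13 of 58 (22.4%), with 16 of 323 sites. FBXW7, a substrate receptor of the SCF ligase, had 3 near-start sites of 5, and its site at 453 was in both lists.

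**Figure D5:**
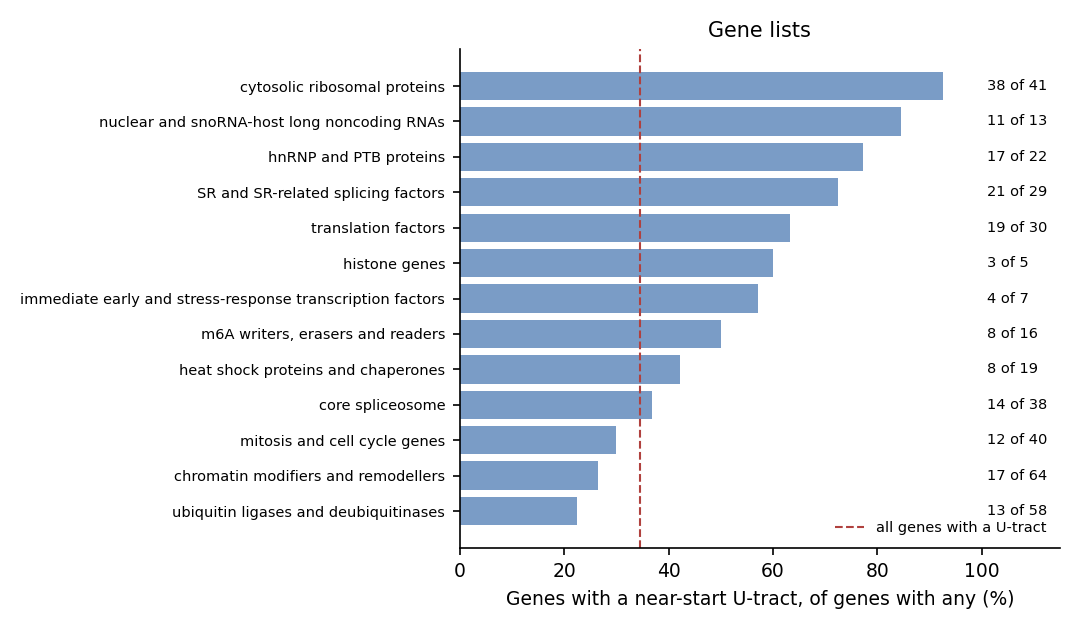
Share of genes with a near-start U-tract among genes with any listed U-tract, for each gene list, in percent; the line marks the share over all genes. Cytosolic ribosomal proteins are highest at 92.7% and ubiquitin ligases and deubiquitinases lowest at 22.4%.

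The lists differ in how many sites a gene has, and the share with a near-start site was not adjusted for that number. By sites rather than genes, 73.6% of the sites of cytosolic ribosomal protein genes were near the start, against 15.6% of all sites. For hnRNP and PTB genes the share was 23.8%, for translation factors 26.9% and for SR factors 18.4%. It was 6.50% for chromatin modifiers and 4.95% for ubiquitin ligases.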

How the data were processed

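Deposited lists of sites from PARCLIP-MeRIP and hnRNPC PAR-CLIP in HEK293T cells were analysed. Per the file headers, the authors' values are positions, U-tract lengths and distances in nt, with exon or intron in the HCS list. The submitters' processing notes name the hg19 build and, in no stated order, Bowtie 1.0.0, Trimmomatic, DESeq, Cuffdiff, Cufflinks and TopHat 1.1.4. For the calling of sites, its thresholds and any pooling, the methods were not given in the sources used here. No value per sample was listed, so no depth and no replicate error can be given. Coordinates are hg19, except the RefSeq sequences.

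The 20150 entries were reduced to distinct U-tracts, leaving out 4 entries on Y copies. Of the entries, 760 had no symbol and 76 a date. These were named by transcript from a RefSeq table where possible (832), and 4 stayed unnamed. All 1090 transcript entries shared by both lists had the same position. Genes that share sites were joined into 4330 loci. Shares were compared by logistic models and gaps by linear models, with errors clustered by locus (statsmodels 0.14.6). Within loci that hold both classes, shares were compared by pooled Mantel-Haenszel odds ratios stratified by locus, without clustering. Intervals are at 95%, exact binomial for shares. The threshold was an adjusted p of 0.05, over 11 comparisons or over those that could be run in an alternative. The models were tested on simulated data. Other software was scipy 1.17.1, pandas 2.3.3, numpy 2.4.6 and matplotlib 3.10.9 under Python 3.11.15.

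The sites, gene lists and comparisons were chosen with earlier results of these data known. Named genes were the 10 with the most near-start sites, up to 10 with the most near-start HCS sites, and the 10 with the earliest site in both lists. Up to 3 members of each gene list with the most near-start sites were also taken, together with the 3 sites on each side of the limit. The rule further took up to 8 genes with at least 5 sites, all near the start, and HNRNPC, METTL3, METTL14 and MALAT1. Not every gene taken by the rule is reported here. The exonic genes, first sites and longest runs named besides these were chosen after their values were seen. Alternatives were limits of 2000 and 10000 nt, the largest position, 1 U-tract per motif, loci that hold both classes, and sets of sites left out.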

Additional observations from a re-analysis of the deposited data

Results flagged for a closer look

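The comparison of exonic with intronic HCS sites was marked because its effect differed between near-start and deeper sites in a test of the difference itself, an interaction term in the logistic model. The ratio of odds ratios was 0.432 (95% interval 0.241 to 0.777, adjusted p = 0.0279, n = 418 and 2330 sites). In the switch list were 49.3% of exonic and 45.0% of intronic HCS sites near the start, and 59.5% and 34.9% of the deeper ones.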

How the results depend on the processing

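No paired analysis was possible because the lists hold no value per sample, and for the same reason no replicate could be left out. All values are odds ratios, except gaps in nt. The downstream share kept its direction and side of the threshold in all 11 alternatives (0.892 to 0.971), long U-tracts in 10 of 12 and the exon-intron interaction in 8 of 9 (0.360 to 0.475). With a limit of 2000 nt, the switch-list share was 1.15, long U-tracts 1.23, noncoding 1.79 and the interaction 0.360, none past the threshold, while the exonic share (1.20) and exonic against intronic near the start (0.929) turned direction. With 10000 nt, the gap difference was 0.714 (adjusted p = 0.0302, n = 4270 and 10754), noncoding 1.64 and no longer past it, and neighbours 1.03 and gaps of 40 and 48 nt 1.03 turned. The switch-list share missed the threshold with the largest position (1.18), 1 U-tract per motif (1.23), multi-gene sites left out (1.26), the 10 top genes left out (1.24) and, added after seeing the data, sites near in some transcripts only left out (1.20). Noncoding missed it without multi-gene sites (1.62), without the 10 top genes (1.59) and, added later, with switch-list sites only (1.45), where the HCS share was 1.12. Within loci, the HCS share (1.02), switch-list share (0.978) and gap (-0.598) turned, and the exonic share (0.318) and neighbours (0.794) passed the threshold. Runs of exactly 5 nt gave 0.922, and neighbours within 1000 nt 1.15. The causes were not tested, apart from the fewer sites under 2000 nt. Within loci, the exonic against intronic and noncoding comparisons were not run, and HCS comparisons need both lists. With no read counts, depth limits which sites could be called, by an amount that is not known.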

Other observations

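Among mitochondrial ribosomal proteins, a group chosen after its values were seen, 18 of the 34 genes with a site had one near the start (52.9%, beside 34.6% over all genes). MRPL34, MRPL52, MRPS16, MRPS24 and MRPS30 each had an exonic near-start HCS site. These 5 sites were among 69 exonic ones in all. Over all 4469 genes with a site, 65 had an exonic near-start HCS site. Of the 5, 4 were in both lists, beside 34 of the 69 (49.3%). MRPL52 also held a U-tract of 24 nt at position 1225 in the switch list only.

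The homeobox gene HOXD9 had 2 exonic HCS sites at 1612 and 1624, in both lists, the first a U-tract of 11 nt. SHMT2, a mitochondrial enzyme of serine and glycine metabolism, had exonic HCS sites at 4169, in both lists, and 4872, in the HCS list only. EXOSC6 and EXOSC3, subunits of the RNA exosome, had exonic HCS sites at 1105 and 4426. All were named after their values were seen.

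By chromosome, the share of sites near the start was highest on chromosome 19, with 153 of 670 sites (22.8%, exact binomial 95% interval 19.7 to 26.2), followed by chromosome 6 (19.2%) and chromosome 17 (18.7%). It was lowest on chromosomes 8 (11.5%) and 4 (12.1%). These are descriptions of the lists, with no test, and transcript length was not taken into account.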
